A study of Homo sapiens with 4 samples.

Results

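CD14, ITGB2, TYROBP, FCER1G, PTPRC, CORO1A, LAPTM5, CD52, TLR2 and TLR4 are genes known mainly from blood cells, and they were measured here in epithelial prostate cancer cells. These 10 of the 25122 genes with a symbol on the arrays were chosen by name with their signals already seen, because some were high in control cells, and every one of their 15 probes was used. Their signals in the control cells and their knockdown ratios are therefore a description and carry no test. PC3 is an androgen-insensitive prostate cancer line grown from a bone metastasis, and DU145 is a second prostate cancer line. Each line carried an shRNA against luciferase (PC3-shC and DU145-shC) or an shRNA against ESS2 (PC3-shESS2 and DU145-shESS2), where ESS2 encodes a nuclear protein studied as a transcriptional coregulator. All 4 conditions were grown in RPMI1640 with serum, and total RNA was hybridized to 1-colour Agilent arrays, 1 array per condition. The labels call the cells transduced, the methods describe plasmid transfection of PC3 cells followed by puromycin selection for at least 2 weeks, and no second shRNA against ESS2 was analysed here.

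Myeloid cells sense bacteria with CD14, which binds lipopolysaccharide at the cell surface and passes it to TLR4, and with TLR2, which binds lipopeptides as a dimer with TLR1 or TLR6. They adhere through ITGB2 (CD18), the beta chain shared by the CD11 integrins, and many of their receptors signal through TYROBP (DAP12) or FCER1G, small adapters whose tyrosine motif (ITAM) recruits the kinase SYK. PTPRC (CD45) is the phosphatase of nucleated blood cells that activates Src-family kinases, CORO1A is the coronin of blood cells, LAPTM5 is a lysosomal membrane protein and CD52 is a small glycoprotein of the lymphocyte surface.

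ESS2 itself had signals of 133 ± 13.4 in PC3-shC and 53.6 ± 5.65 in PC3-shESS2 cells, and of 85.7 ± 8.74 in DU145-shC and 17.3 ± 2.36 in DU145-shESS2 cells. It was 2.74-fold lower with its shRNA in PC3 and 5.09-fold lower in DU145, in the direction of the labels. Here and below, a signal is the background-subtracted brightness of a spot in the scanner's units, the value after ± is the error the scanner software gives that spot, and a fold is taken after dividing each array by its 75th percentile. That percentile was 263 and 290 on the PC3 arrays and 212 and 218 on the DU145 arrays, and by the scanner's own mark 50.8 to 52.6% of the 60901 spots that are not controls stood well above background. As there is 1 array per condition, the differences have no replicate check, carry no p-value and are only as precise as a single hybridization allows. Between spots of the same probe, the log2 ratio had a median SD of 0.05 in each knockdown comparison, which covers neither the hybridization nor the cells. Each line was hybridized on a slide of its own, so the line and the slide cannot be told apart when PC3-shC is set against DU145-shC, while each knockdown comparison lies within 1 slide.

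The epithelial label held on every array. All 12 epithelial markers were well above background on all 4 arrays, with CDH1 (E-cadherin) signals of 8483, 10813, 176 and 180 in PC3-shC, PC3-shESS2, DU145-shC and DU145-shESS2 cells. Their levels were not constant, and in DU145 the adhesion molecule EPCAM had 2120 and 357 (log2 ratio −2.61) and the tight junction genes CLDN7 and CLDN4 had 233 and 62.8 (−1.93) and 983 and 4720 (2.22) with control and ESS2 shRNA. In PC3, CLDN4 had a log2 ratio of 0.97. The surface glycoprotein CD24, singled out after its values were seen, was past 2-fold higher with ESS2 shRNA in both lines, at 14900 and 38800 in PC3 and 7690 and 19100 in DU145. Of 47 markers of T, B, NK, monocyte, macrophage and neutrophil cells, 12, 13, 17 and 17 were well above background on these arrays in the same order, 9 were so on all 4 arrays and 24 on none. The 24 include the CD3 chains CD3E and CD3G of the T cell receptor, the B cell genes MS4A1 and PAX5, the macrophage genes CD163, MARCO and C1QB, and the neutrophil enzymes MPO and ELANE. The CD3D chain, singled out after its values were seen, had 17.8, 2.66, 37.2 and 31.2 and was well above background on all arrays but the second. Among the exceptions were CD4, a T helper and monocyte surface protein, at 3660, 3100, 3290 and 2690, and CD79A, a B cell receptor chain, at 810, 676, 1620 and 1310. The remaining markers well above background on all 4 arrays were CD8A, CD28, JCHAIN, GZMB, CD33, CSF3R and S100A12. Their probes did not all concur. A second probe of CD28 and of CD33 was not well above background on any array, and second probes of CD8A and S100A12 were not on all 4.

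**Figure D1:**
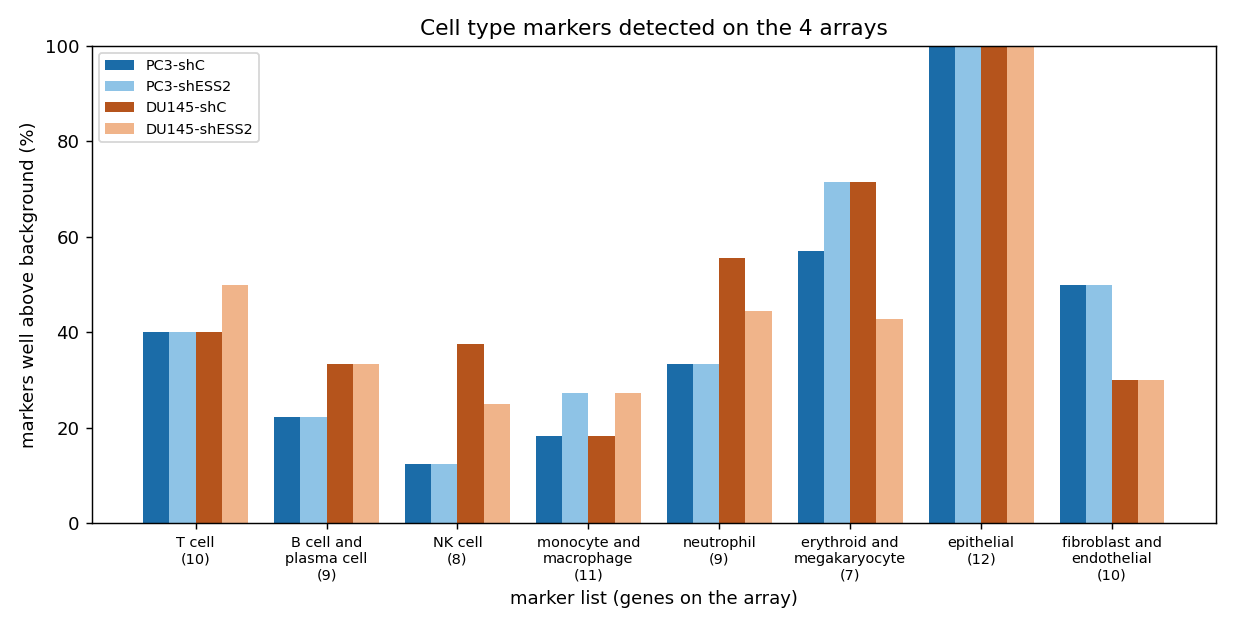
Percentage of the genes of each cell type list that were well above background on each of the 4 arrays, with the number of genes of that list on the array under its name. The epithelial list reaches all 12 genes on every array, and the monocyte and macrophage list reaches 2 or 3 of 11.

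SPI1 encodes PU.1, a transcription factor that switches on many myeloid genes and binds purine-rich boxes, and so the 250 bases before the start site of each member were searched for its box. The GRCh38.p14 RefSeq promoter table held 9 of the 10 genes, all except ITGB2. The letters GAGGAAG occurred on either strand in 4 of the 9 (CD14, TYROBP, CD52 and TLR4) and in 11.2% of all 35116 promoters of that length. The AP-1 letters TGANTCA occurred in CD14 only and in 6.57% of all promoters. The first match in CD14, TYROBP and TLR4 is shown in a 30-base stretch on the gene's strand, with the matched letters in capitals. These PU.1 boxes are shown because SPI1 was measured on the same arrays, and the AP-1 match because CD14 is the only member with one.
CD14 PU.1 box, chr5:140633253-140633282, minus strand: gggctggctcgGAGGAAGagaggtggggag
TYROBP PU.1 box, chr19:35908507-35908536, minus strand: tcaatcagccaGAGGAAGgtcatgacactg
TLR4 PU.1 box, chr9:117704167-117704196, plus strand: aagccaactagCTTCCTCttgctgtttctt
CD14 AP-1 site, chr5:140633380-140633409, minus strand: cctggggcgccTGAGTCAtcaggacactgc
In TLR4 the box reads on the opposite strand. No member matched the C/EBP letters TTGCNNAA, found in 9.05% of all promoters, or the IRF letters of GAAA, any 2 bases and GAAA, found in 3.02%. The GC box GGGCGG matched 5 members against 42.6% of all promoters, and the looser κB-like pattern of GGG, any 5 bases and CC matched 5 members against 54.4%. These GC and κB-like letters overlapped each other in FCER1G and TLR2, and the PU.1 and AP-1 matches overlapped no other motif. A match describes letters in this window, not a site in use. SPI1 itself had signals of 18.9, 9.20, 19.8 and 13.3 in PC3-shC, PC3-shESS2, DU145-shC and DU145-shESS2 cells, of which the second was not well above background.

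Many of the leukocyte-type genes gave a signal in the tumour cells. In PC3-shC, PC3-shESS2, DU145-shC and DU145-shESS2 cells, 8, 8, 7 and 8 of the 10 were well above background, where 64.2, 65.3, 64.9 and 65.6% of all genes with a symbol were. As signal was a reason to choose them, nothing is read from these counts. CD14, ITGB2, TYROBP, FCER1G, PTPRC, CORO1A and TLR2 were so on all 4 arrays, and TLR4 on none. Because a spot's brightness depends on its probe, the genes are not ranked by level.

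**Figure D2:**
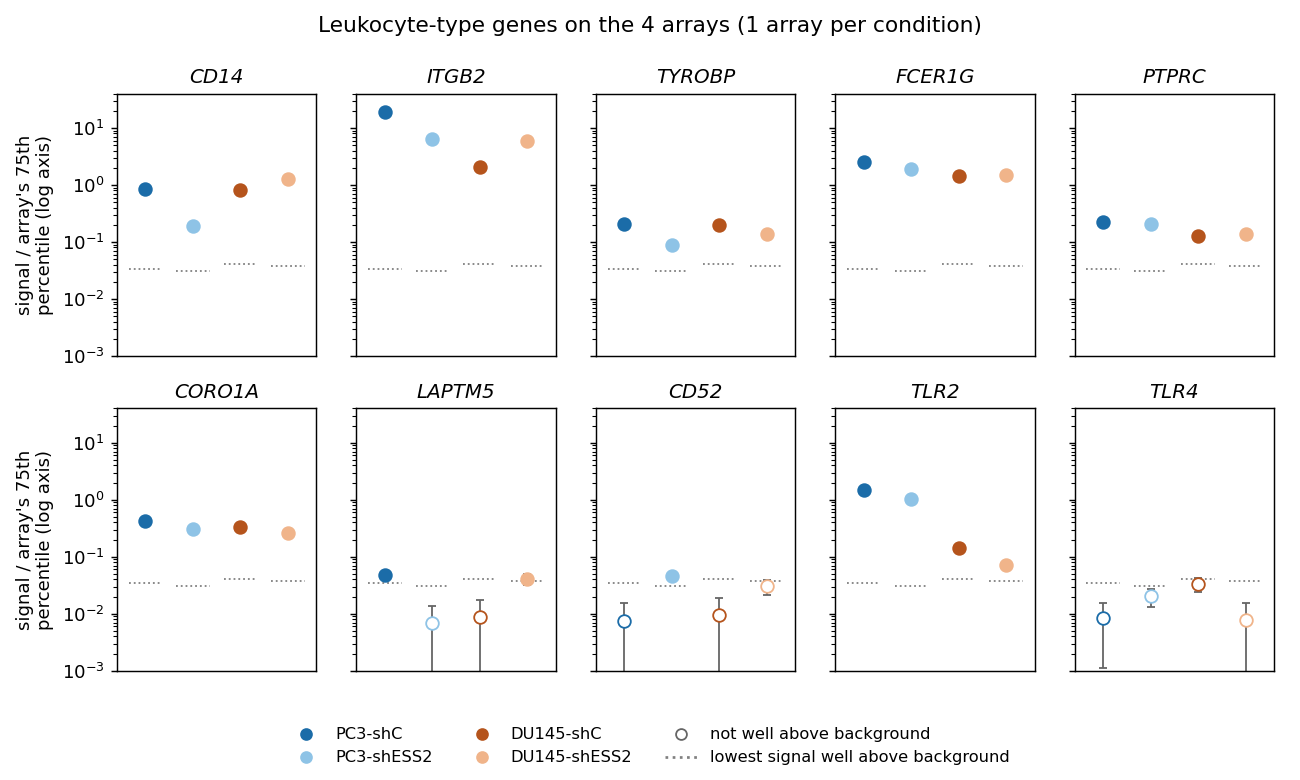
Signal of each of the 10 genes divided by the 75th percentile of its array, on a log axis, with 1 point for each of the 4 arrays. Error bars are the error of the scanner software and are cut at the axis, hollow points were not well above background, and dotted lines mark the lowest signal well above background on that array. ITGB2 and CD14 are lower in PC3-shESS2 than in PC3-shC and higher in DU145-shESS2 than in DU145-shC.

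Among the sensors of bacterial products, CD14 had the lowest signal in PC3-shESS2 cells and the highest in DU145-shESS2 cells. Its signals were 221 ± 22.2 in PC3-shC, 54.7 ± 5.83 in PC3-shESS2, 172 ± 17.3 in DU145-shC and 274 ± 27.5 in DU145-shESS2 cells. CD14 was thus 4.45-fold lower with ESS2 shRNA in PC3 (log2 ratio −2.16 ± 0.21, from the scanner's errors) and 1.55-fold higher in DU145 (0.63 ± 0.20). In the 2 controls it lay within that error (log2 ratio 0.05 ± 0.21).

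TLR2 separated the cell lines. Its signals were 384 ± 38.5 and 300 ± 30.1 in PC3-shC and PC3-shESS2 cells and 29.9 ± 3.51 and 15.6 ± 2.30 in DU145-shC and DU145-shESS2 cells, so that both PC3 values lay above both DU145 values. PC3-shC was 10.4-fold above DU145-shC, a log2 ratio of 3.37 that was 2.20 with normexp background correction and 3.83 when arrays were scaled to their medians. With ESS2 shRNA, TLR2 was 1.41-fold lower in PC3 and 1.97-fold lower in DU145, just short of 2-fold, and the DU145 log2 ratio of −0.98 was −0.29 with normexp background correction. TLR4, the partner of CD14, was not well above background with either probe on any array (signals of 1.71 to 7.08), and no fold is given.

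The other genes of this recognition step were partly present. Of 13 genes for lipopolysaccharide and lipopeptide recognition and the remaining Toll-like receptors, 6 were well above background on all 4 arrays and 6 on none. The TLR4 co-receptor LY96 (MD-2) had signals of 33.8, 29.0, 22.2 and 38.3. The TLR2 partner TLR1 had 187, 286, 31.8 and 38.4, and so it too was higher in both PC3 arrays, and the alternative partner TLR6 had 20.4, 44.3, 37.0 and 30.8. TLR3, the receptor for double-stranded RNA, was the gene of the list past 2-fold in a knockdown comparison, at 240 and 99.3 in PC3-shC and PC3-shESS2 cells (log2 ratio −1.41) and 14.0 and 11.9 in DU145 (−0.27). That is 1 of 7 compared in PC3, where 3.87% of all genes were past 2-fold lower, and 0 of 6 in DU145. The median log2 ratios were 0.04 and −0.14, against −0.06 and −0.02 for all genes. Among 19 genes of Toll-like receptor signalling, 18 were well above background on all 4 arrays, the adapter MYD88 among them at 1440, 1570, 225 and 313. None of 18 compared passed 2-fold with ESS2 shRNA in PC3 and 1 of 19 passed it upwards in DU145, near the 2.36% of all genes. It was UNC93B1, the chaperone of the endosomal receptors, at 904, 604, 315 and 652 (log2 ratio −0.72 in PC3 and 1.01 in DU145, with the same direction in all 3 of its probes). The medians of this signalling list were −0.06 in PC3 and −0.03 in DU145, close to those of all genes.

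ITGB2 had opposite directions in the 2 lines. Its signals were 4990 ± 499 in PC3-shC, 1850 ± 185 in PC3-shESS2, 439 ± 43.9 in DU145-shC and 1280 ± 128 in DU145-shESS2 cells. The PC3 value was 2.97-fold lower with ESS2 shRNA and the DU145 value was 2.84-fold higher. PC3-shC stood 9.16-fold above DU145-shC, whereas the 2 knockdown arrays lay closer together than the 2 controls.

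None of the alpha chains that pair with ITGB2 was well above background in the control cells. ITGAL (CD11a) and ITGAD (CD11d) were not well above background on any array, with ITGAL signals of 1.98 to 2.24. ITGAM (CD11b) had 9.53, 15.7, 10.0 and 14.0 and was well above background on the 2 knockdown arrays. ITGAX (CD11c), singled out after its values were seen, had 2.61, 2.42, 5.04 and 21.0 and was well above background in DU145-shESS2 cells, with a log2 ratio of at least 1.24 in DU145. FERMT3 (kindlin-3), which binds integrin tails in blood cells, had 7.88, 17.8, 10.1 and 24.8, a log2 ratio of 1.26 in DU145. Among the ligands of ITGB2 integrins, ICAM1 had 1072, 676, 1983 and 1151 (log2 ratios −0.81 and −0.82) and ICAM3 had 4650, 3920, 858 and 857 (−0.39 and −0.04). Of these 11 partners and ligands, 8 were compared in each line, 0 were past 2-fold in PC3 and 2 (FERMT3 and ITGAX) past 2-fold higher in DU145, where 2.36% of all genes compared were. The median log2 ratios were −0.10 and 0.22, and those of all genes −0.06 and −0.02. In DU145-shC cells FERMT3 lay just above and ITGAX below the detection limit of 8.65, so both differences start from dim signals.

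TYROBP was well above background on all 4 arrays, at 53.5 ± 5.84 in PC3-shC, 26 ± 3.52 in PC3-shESS2, 42.5 ± 4.81 in DU145-shC and 30.6 ± 3.74 in DU145-shESS2 cells. It was 2.27-fold lower with ESS2 shRNA in PC3 and 1.43-fold lower in DU145. With normexp background correction, which pulls dim ratios towards 0, the PC3 log2 ratio was −0.46 in place of −1.18. FCER1G had 653 ± 65.3, 548 ± 54.9, 302 ± 30.2 and 323 ± 32.3 in the same order. The FCER1G difference was 1.31-fold lower in PC3 and 1.04-fold higher in DU145, the second within the scanner's error, and both PC3 values exceeded both DU145 values.

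Of 23 genes listed as receptors that pair with TYROBP or FCER1G, 7 were well above background on all 4 arrays and 13 on none. TREM1, which amplifies inflammatory signals through TYROBP, had 1960 and 250 in PC3-shC and PC3-shESS2 cells (log2 ratio −3.11), and 5.78 and 44.2 in DU145-shC and DU145-shESS2 cells, where the control was not well above background (at least 2.31). FCGR2A, an IgG receptor that carries an ITAM in its own tail, had 74.1, 16.4, 13.5 and 36.8 (−2.32 in PC3 and 1.41 in DU145). Thus 2 of the 8 receptors compared were past 2-fold lower in PC3 and 2 of 10 past 2-fold higher in DU145, and both times these were TREM1 and FCGR2A, beside 3.87% and 2.36% of all genes compared. Without FCGR2A, which does not rely on the adapters in the same way, 1 of 7 and 1 of 9 remain. The median log2 ratio of the receptors was −0.47 in PC3 and 0.10 in DU145, beside −0.06 and −0.02 for all genes compared. OSCAR, CD300E and SIGLEC14, well above background on all 4 arrays, stayed within 2-fold in both lines. Their log2 ratios were −0.32, −0.49 and −0.09 in PC3 and −0.09, 0.08 and 0.03 in DU145.

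SIRPB1, another TYROBP-coupled receptor, depended on the probe. The probe that stood for it had 4760, 2800, 798 and 709 (log2 ratio −0.91 in PC3), and 3 further probes gave −3.57, −3.66 and −3.27. SIRP genes are near-identical copies in parts, so which of them a SIRPB1 probe detects is uncertain. TREM1's second probe gave −2.80 in PC3, close to the first. In DU145 only the first TREM1 probe was well above background, and only with ESS2 shRNA. The second had 6.96 and 9.65 there, so the TREM1 difference in DU145 rests on the first probe.

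Downstream of the ITAM, the kinase SYK was well above background in both lines, at 969 and 1210 in PC3-shC and PC3-shESS2 cells and 26.2 and 27.8 in DU145-shC and DU145-shESS2 cells (log2 ratios 0.18 and 0.05). Of 20 ITAM kinases and adapters, 12 were well above background on all 4 arrays. PLCG2, the phospholipase acting after SYK, was the one past 2-fold in a knockdown comparison, at 79.8 and 417 in PC3 (log2 ratio 2.24) and 63.4 and 73.0 in DU145 (0.16). Its second probe gave 1.5 and −0.55. This was 1 of 16 compared in PC3, near the 3.88% of all genes past 2-fold higher, and 0 of 14 in DU145. The medians were 0.00446 and −0.08, and those of all genes −0.06 and −0.02.

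PTPRC was seen by some of its probes and not by others. Probe A_33_P3309526 had 59.7 ± 6.23, 60 ± 6.26, 27.2 ± 3.21 and 30 ± 3.40, and probe A_33_P3364808 had 27.6 ± 3.61, 28.5 ± 3.70, 26.7 ± 3.49 and 38.7 ± 4.42 in PC3-shC, PC3-shESS2, DU145-shC and DU145-shESS2 cells. The other 3 probes were not well above background on any array, with signals from 1.61 to 9.77. The first probe had log2 ratios of −0.13 in PC3 and 0.10 in DU145, and the second −0.09 and 0.50. Between the controls the 2 probes pointed different ways, 1.77-fold higher and 1.20-fold lower in PC3-shC, so no direction is given for PTPRC there.

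**Figure D3:**
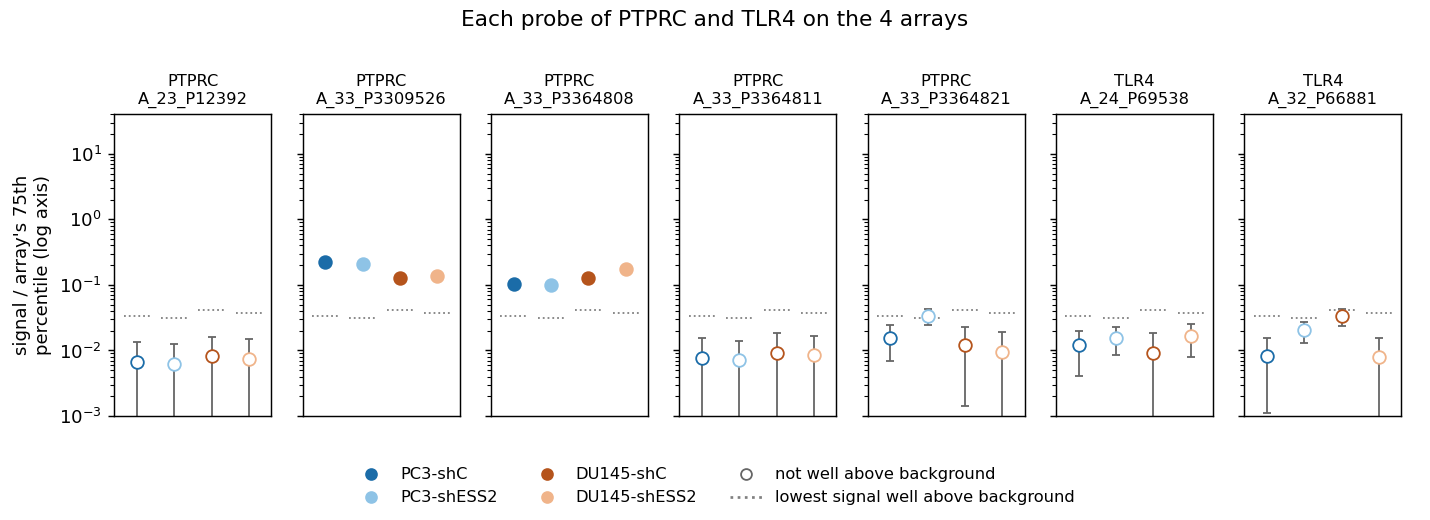
Signal of each of the 5 PTPRC probes and 2 TLR4 probes divided by the 75th percentile of its array, on a log axis, for the 4 arrays, with symbols, error bars and dotted lines as for the 10 genes. The probes A_33_P3309526 and A_33_P3364808 of PTPRC are well above background on all 4 arrays and every other probe on none.

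Of 8 genes for partners and substrates of PTPRC, 4 were well above background on all 4 arrays. PAG1, the membrane adapter that holds the inhibitory kinase CSK, had 71.2 and 324 in PC3-shC and PC3-shESS2 cells and 114 and 405 in DU145-shC and DU145-shESS2 cells, higher with ESS2 shRNA in both lines (log2 ratios 2.05 and 1.79). Its second probe gave 1.95 and 2.15. LCK, a Src-family kinase of T cells activated by PTPRC, had 47.1 and 162 in PC3 (1.64, and 1.80 with its second probe) and was not well above background in DU145. CSK had 380, 434, 303 and 291 (0.05 and −0.10). Thus 2 of 6 partners were past 2-fold higher in PC3 and 1 of 6 in DU145, beside 3.88% and 2.36% of all genes compared. The medians were 0.25 and −0.32, and those of all genes −0.06 and −0.02.

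CORO1A had 110 ± 11.2, 88.3 ± 9.04, 70.2 ± 7.25 and 57.4 ± 5.99 in PC3-shC, PC3-shESS2, DU145-shC and DU145-shESS2 cells, 1.37-fold lower with ESS2 shRNA in PC3 and 1.26-fold lower in DU145. Of the other coronins and LAPTM proteins 7 of 8 were well above background on all 4 arrays. One was past 2-fold with ESS2 shRNA, CORO2B in DU145 at 52.0 and 26.3 (log2 ratio −1.02), and it was not well above background in PC3. Past 2-fold lower in DU145 were thus 1 of 8, where 2.47% of all genes were. The medians of these relatives were 0.02 in PC3 and 0.30 in DU145, and those of all genes −0.06 and −0.02.

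LAPTM5 and CD52 lay at the detection limit. LAPTM5 had 12.7 ± 2.30 in PC3-shC, 1.97 ± 1.98 in PC3-shESS2, 1.85 ± 1.86 in DU145-shC and 9.05 ± 1.99 in DU145-shESS2 cells, and only the first and the last were well above background. It was at least 1.55-fold lower with ESS2 shRNA in PC3 and at least 1.02-fold higher in DU145, each against the lowest signal well above background on the dim array (9.02 for PC3-shESS2 and 8.65 for DU145-shC). CD52 had 1.99 ± 2, 13.4 ± 2.44, 2.02 ± 1.95 and 6.72 ± 1.97, was well above background in PC3-shESS2 cells alone, and was at least 1.36-fold higher there than in PC3-shC cells. No fold is given for CD52 in DU145.

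Counted together, the knockdown comparisons gave the following. In PC3, 9 of the 10 genes could be compared, and 3 (CD14, ITGB2 and TYROBP) were past 2-fold lower with ESS2 shRNA, where 3.87% of all 16764 genes compared were, while 0 were past 2-fold higher, where 3.88% of all genes were. Their median log2 ratio was −0.50, and that of all genes −0.06. In DU145, 8 could be compared, and 1 (ITGB2) was past 2-fold higher, where 2.36% of all 16842 genes were, and 0 were past 2-fold lower, where 2.47% were. The median was 0.04, and that of all genes −0.02. As these ratios were known when the genes were chosen, nothing is read from the counts.

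**Figure D4:**
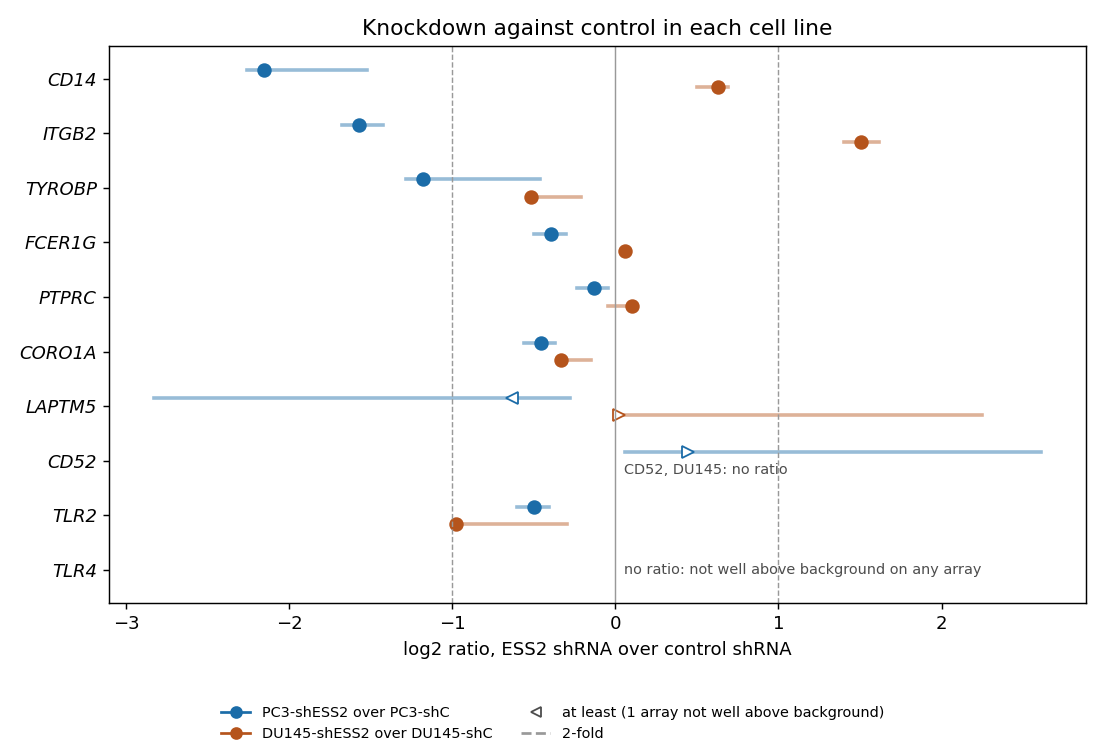
Log2 ratio of ESS2 shRNA over control shRNA for each gene in PC3 (blue) and DU145 (orange), where lines span the values under the alternative settings, triangles are lower bounds of a difference with 1 array not well above background, and dashed lines mark 2-fold. CD14 and ITGB2 lie left of 0 in PC3 and right of 0 in DU145, and TLR4 has no ratio.

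Between the control cells, ITGB2 and TLR2 were past 2-fold higher in PC3-shC, 2 of 8 genes compared, beside 22.1% of all 17475 genes. No member was past 2-fold lower, beside 19.9% of all genes. The share of ITGB2 and TLR2 among the 8 is therefore near that of all genes. The scaling matters here, as the median log2 ratio of all genes was 0.12, and was 0.58 when arrays were scaled to their medians (2371 lower and 6132 higher past 2-fold, in place of 3480 and 3863) and −0.33 with the authors' scaled values (5159 and 2399). The small differences of CD14, TYROBP, CORO1A and LAPTM5 between the controls changed sign with the authors' values, and those of ITGB2 and TLR2 did not change sign under any of the 9 alternatives.

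Of 23 leukocyte-restricted genes outside the 10, listed with earlier results of these data known, 9 were well above background on all 4 arrays and 9 on none, among the latter CD53, CD37, CD48 and IKZF1. HCLS1, a cortactin-like actin regulator of blood cells, had 974 and 156 in PC3-shC and PC3-shESS2 cells (log2 ratio −2.78) and 19.1 and 24.1 in DU145 (0.30). It and SPI1 (−1.18 at its bound) were the 2 of 13 past 2-fold lower in PC3, beside 3.87% of all genes. LST1, a small membrane protein of myeloid cells, was the 1 of 12 past 2-fold lower in DU145, beside 2.47% of all genes, at 105 and 40.3 (−1.42). The medians over the genes compared were −0.32 in PC3 and −0.03 in DU145.

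Other genes of that list were bright in PC3 and stayed within 2-fold between its arrays. LCP1, the plastin of blood cells, had 13300, 14100, 13.2 and 17.6, and the GTPase RAC2 had 7420, 6650, 393 and 469. SRGN and ARHGDIB, named after their values were seen, had 6020 and 7790, and 3400 and 4860, in PC3-shC and PC3-shESS2 cells and were not well above background in DU145. With HCLS1 these were the 5 of 13 genes past 2-fold higher in PC3-shC than in DU145-shC, where 2 (WAS and LST1) were past 2-fold lower, beside 22.1% higher and 19.9% lower among all genes compared. The median log2 ratio between the controls was −0.31, and that of all genes 0.12. ARHGAP45 and LSP1, also named after their values were seen, were bright in both lines. ARHGAP45 had 9030, 7410, 9020 and 7570, and LSP1 had 4920, 4350, 2990 and 2900. A further LSP1 probe was not well above background on any array.

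Markers of other cell types moved beside the PC3 differences of CD14, ITGB2 and TYROBP in part. The monocyte and macrophage list had 2, 3, 2 and 3 of 11 genes well above background in PC3-shC, PC3-shESS2, DU145-shC and DU145-shESS2 cells, with a summed signal of 0.451, 0.327, 0.460 and 0.425 times the array's 75th percentile, and CD163, MARCO, VSIG4, C1QB, C1QC and MRC1 were not well above background on any array. The neutrophil list summed to 1.58, 0.514, 0.632 and 0.777, with MPO, ELANE, CXCR1 and CXCR2 not well above background on any array. Its sum in PC3 followed S100A12, a calcium-binding protein of neutrophils, at 328 and 54.2 (log2 ratio −2.74, and −2.83 with a second probe). Named after their values were seen, CSF1R, the macrophage growth factor receptor, had 43.8 in PC3-shC and 3.73 with the ESS2 shRNA, the second not well above background, and PECAM1, an adhesion molecule of endothelium and blood cells, had 338 and 16.4. Others on the lists, among them C1QA, LUM and PPBP named after their values were seen, were higher with ESS2 shRNA in PC3. ITGAM was so, as given above, and C1QA, a macrophage complement gene, had 4.14 and 10.4, with the first of these not well above background. LUM, a fibroblast matrix gene, had 9.90 and 48.8 (2.16), and PPBP, a platelet chemokine, had 178 and 946 (2.27). The erythroid and megakaryocyte list, which holds PPBP, summed to 4.30, 6.08, 1.11 and 0.910 in the 4 conditions. The T cell list summed to 14.4, 11.2, 16.1 and 12.9, most of it CD4, and the B and plasma cell list to 3.21, 2.44, 7.87 and 6.21, most of it CD79A. Because brightness depends on the probe, each sum mostly follows the brightest probes of its list and does not measure a cell type. CD3D was lower with ESS2 shRNA in PC3, with a log2 ratio of −1.12 at its bound. The part of other cells in these differences was not tested, and in bulk RNA fewer cells with a gene and less RNA per cell cannot be told apart.

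The genes with the closest pattern over the 4 arrays, out of 17125 ranked, were found for the 8 members well above background on at least 2 arrays, which leaves out CD52 and TLR4. The measure is the root mean square difference of log2 values after each gene's own mean is removed, and with 4 arrays it rests on few points that share the same arrays. For ITGB2 they were HHIPL2 (0.11), at 151, 51.8, 14.2 and 34.0, and the interferon-induced GTPase GBP2 (0.20), at 511, 189, 61.5 and 130. For CD14 they were the actin-associated SYNPO (0.22), at 1280, 468, 1230 and 1690, and SEMA6B (0.26). For TLR2 they were HOXA13 (0.15) and SOWAHD (0.16), for TYROBP C2orf81 and ZBTB47 (both 0.06), for CORO1A DCBLD2 and BOLA2-SMG1P6 (both 0.02) and for PTPRC DCAF7 (0.01) and CPSF2 (0.02). For FCER1G they were KRI1 (0.0023) and DHFR2 (0.0086). LAPTM5, not well above background on 2 of the 4 arrays and raised there to the detection limit, had GAL and ABHD6 (both 0.02).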

How the data were processed

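Total RNA of PC3-shC, PC3-shESS2, DU145-shC and DU145-shESS2 cells was measured on 4 Agilent arrays from 0.1 µg each. The authors deposited the scanner output, in which the intensity of each spot has its background subtracted, made with Agilent Feature Extraction 12.1.0.3 for PC3 and 12.0.3.1 for DU145, and a table of scaled intensity values, each column of which equals the processed signal times a constant. Their methods name GeneSpring without settings.

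Control and outlier spots (82 to 121 per array) were left out. Log2 signals were scaled to each array's 75th percentile, spots of a probe were averaged, and the probe with the highest mean stood for a gene. A gene needed 1 array of a comparison well above background, and a dim value was raised to the lowest signal well above background. Symbols came from matching accessions to a RefSeq table of GRCh38.p14 (35080 probes), and as the array was annotated on another build no coordinates of probes are given.

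The members and all gene lists were chosen with earlier results of these data known. Besides ESS2 and the members, the text names up to 4 genes per list with the largest ratio past 2-fold in a knockdown comparison and well above background on both arrays, some of the binding partners well above background in both controls, up to 4 genes of each marker list well above background on all arrays, and the 2 genes closest in pattern to each member. Other genes spell out small counts or absent markers, or are marked as named after their values were seen. No test was made, as each condition has 1 array. The calculations were tested on simulated data that carried noise between spots only, which covers neither hybridizations nor cells. The 9 alternatives were quantile normalization, scaling to the median, the authors' scaled values, normexp (offset 50, on the median spot signal), outlier spots kept, the plain signal of dim spots, a filter on both arrays, no filter and the mean of a gene's probes. Calculations used R 4.3.3 with limma 3.58.1, and Python 3.11.15 with numpy 2.4.6, pandas 2.3.3 and matplotlib 3.10.9.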

Additional observations from a re-analysis of the deposited data

Results flagged for a closer look

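Among the 85 genes examined (the members, the list genes named for a difference past 2-fold and all list genes well above background in both controls), 17 had opposite directions in the 2 lines with ESS2 shRNA, each by more than 3 times the spread between spots in both lines. That is 21% of the 81 compared in both lines, beside 17.6% of all 15478 genes so compared. The rule is lenient, as its median SD was 0.05 while the scanner's error of the ITGB2 log2 ratio was 0.20 in each line. Directions are thus uncertain for ratios near 0.20, as for SARM1 (0.19) and RAC2 (0.21) in DU145 and SIGLEC15 in PC3 (0.19). HCLS1 in DU145 (0.30) rests on dim signals of 19.1 and 24.1. For TLR2, similarly dim in DU145 at 29.9 and 15.6, that error was 0.27. The difference between the lines was not tested, since each condition has 1 array. The values below are the PC3 log2 ratio minus the DU145 log2 ratio. In 6 genes at least 1 line was past 2-fold, 7.41% beside 2.55% of all genes, and as part of the 85 were named for being past 2-fold nothing is read from this. This difference was −2.79 for CD14, −3.08 for ITGB2, −1.73 for UNC93B1, −3.72 for FCGR2A and −3.08 for HCLS1, and TREM1, whose DU145-shC signal was not well above background, had −5.42 at its bound. No other TREM1 probe was well above background in DU145. All 6 were lower in PC3 and higher in DU145.

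The other 11 stayed within 2-fold in each line. Those lower in PC3 and higher in DU145 were the TLR4 co-receptor LY96 (−1.11), the adapter SARM1 (−0.78), CD300LB (−0.82), CORO2A (−1.17), LAPTM4B (−0.73) and RAC2 (−0.51). A second probe of RAC2 (log2 ratios −0.11 in PC3 and 0.08 in DU145) stayed within 3 times that spread, and the second probe of SARM1 was not well above background on either DU145 array. The reverse held for TLR6 (1.28), the kinases IRAK4 (0.82) and FYN (1.56), SIGLEC15 (0.46) and LGALS1 (0.85).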

How the results depend on the processing

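The count of members past 2-fold stayed within 1.5 times its value under all but 3 of the 9 alternatives. With the plain signal of dim spots it was 5 in place of 3 in PC3 and 2 in place of 1 in DU145, and without a filter on dim genes it was 6 and 4. Both settings bring in the ratios of dim spots, those of LAPTM5 and CD52 among them (log2 ratios of −2.83 and 2.61 in PC3). Between the controls it was 4 in place of 2 both without that filter and when arrays were scaled to their medians. CD14 and ITGB2 were past 2-fold in PC3 under all 9 alternatives, with log2 ratios from −2.26 to −1.52 and from −1.68 to −1.42, as was ITGB2 in DU145, from 1.4 to 1.62. TYROBP in PC3 was past 2-fold under 8. Genes past 2-fold in PC3 numbered 649 lower and 650 higher, 803 and 511 when scaled to the median, and 535 and 792 with the authors' values. With normexp, which shrinks dim ratios, they were 323 and 248 in PC3 and 77 and 139 in DU145 in place of 416 and 397, and 2021 and 3049 between the controls in place of 3480 and 3863, and so the shares of all genes set beside the counts would be lower too. Without a filter they were 1193 and 1431 in PC3 and 1061 and 959 in DU145, over 25121 genes, and with both arrays well above background 271 and 277 in DU145. The counts of members well above background were equal with outlier spots kept. Signals near the detection limit of 8.15 to 9.02 give bounds only. The arrays pair by cell line only, as the labels carry no replicate numbers, and with 1 array per condition no paired analysis was made.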
